A study of Mus musculus with 7 samples.

Results

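Between the middle and the late light phase, mRNAs of clock repressors, of their output factors and of several lipid and glucose enzymes were higher in mouse liver. Among the genes that were lower were Arntl and Clock. Also lower were 6 of 30 tested genes of endoplasmic reticulum folding, 3 of 22 heat shock chaperones and 5 of 21 acute phase genes. Over all tested genes 1.92% were lower. This step is the difference between the ZT10 array and the ZT06 array, in log2, where ZT is the time in h after lights on. It was read over the 12076 of 35556 probe sets that carry 1 gene symbol and have a mean above 85 units, and these probe sets stand for 10966 of the 19938 genes named by at least 1 such probe set at any level. Units are array signals on the natural scale, so that a log2 difference of 1 is a 2-fold difference. Where a gene had several probe sets, the one with the highest mean was used.

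Total RNA from mouse liver was hybridised to Mouse Gene 1.0 ST arrays (Affymetrix) every 4 h from ZT02 to ZT26, with 1 array per time point and 7 in all. Each array took 1 pool of RNA from 5 livers. The ZT10 pool and the ZT06 pool, like the other 5 pools, came from C57/BL6 male mice under 12 h of light and 12 h of darkness, 9 to 11 weeks old at the start of 2 weeks of free feeding, after which food was given only between ZT12 and ZT24 for 7 days. The livers were perfused before collection, and at both ZT10 and ZT06 the mice had been without food since lights on. No mouse was sampled more than once.

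The circadian clock of mammals is a transcriptional feedback loop. BMAL1 (encoded by Arntl) and CLOCK bind E-boxes and activate the Per and Cry genes, whose proteins then repress this activation, while the REV-ERB receptors (Nr1d1 and Nr1d2) and the ROR receptors compete for ROR elements in genes such as Arntl. DBP, TEF and HLF activate through D-boxes, where E4BP4 (Nfil3) represses. In liver this loop is combined with the signals of feeding and fasting, which set much of the daily course of lipid, glucose and bile acid metabolism.

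There is 1 array per time point, so the step has no replicate check and no p-value is given. ZT26 and ZT02 fall on the same hour of 2 successive days, and the difference between these 2 pools was taken as the noise scale. Over the 12076 probe sets the SD of ZT10 minus ZT06 was 0.249 in log2, against 0.165 for ZT26 minus ZT02, and that of ZT22 minus ZT18 was 0.169. The ZT26 minus ZT02 difference was not centred on 0, with a median of 0.04. A gene was called higher or lower at ZT10 where its difference exceeded the 99th percentile of the absolute ZT26 minus ZT02 difference, which was 0.522 in log2 or 1.44-fold.

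By this measure 214 of the 10966 genes were higher at ZT10 than at ZT06 (1.95%) and 210 were lower (1.92%). The same threshold took 66 genes up and 50 genes down between ZT26 and ZT02 (0.602% and 0.456%). Differences of over 2-fold were found in 58 genes that were higher at ZT10 (0.529%) and in 43 that were lower (0.392%), against 3 genes (0.0274%) and 10 genes (0.0912%) for ZT26 minus ZT02. Beside their call, 210 of the 214 genes and 203 of the 210 genes differed by more than their own ZT26 minus ZT02 difference. The threshold comes from that same difference, so most called genes had to pass, and this adds no support to the calls. The genes nearest to the threshold were Exd1 and Lingo4 just above it (0.52 each in log2), Azin1 (0.52) and Map2k3 (0.52) just below it, Tlcd2 (-0.52) and Spsb3 (-0.52) just beyond it on the other side, and Lrrc59 and Aqp8 (-0.52 each) just short of it. Of the higher genes, Exd1 and Ccne1 passed the level minimum only through their ZT10 value, and of the lower genes Saa1 passed it only through its ZT06 value. The ZT10 value was below the array background of 43 units in 4 of the 210 lower genes (Saa1, Arntl, Ube2u and Slc34a2), so the size of their difference is not fixed by these values.

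**Figure D1:**
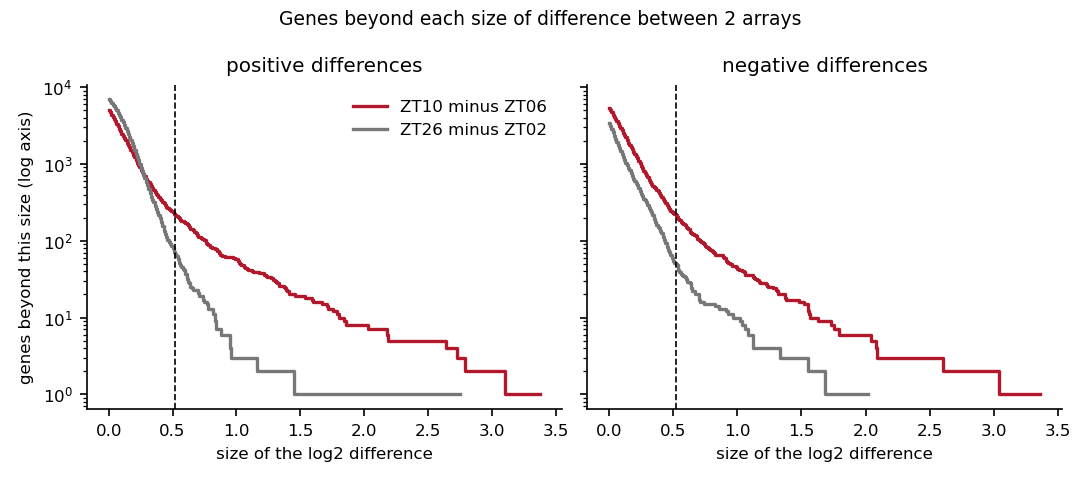
Number of genes (log axis) whose difference between 2 arrays exceeds the size in log2 on the x axis, for positive differences (left) and negative differences (right), for ZT10 minus ZT06 (red) and ZT26 minus ZT02 (grey). The dashed line is the call threshold of 0.522, beyond which the red line holds 214 and 210 genes and the grey line 66 and 50. The total of the grey counts there is set by the threshold, which was taken from ZT26 minus ZT02.

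The core clock repressors were higher with 1 exception. Of 7 tested repressors, 6 were higher at ZT10 and none was lower, beside 1.95% and 1.92% of all tested genes, with a median difference of 1.71 beside 0. Ciart, which encodes a repressor of CLOCK and BMAL1, gave 34.2, 103, 876, 784, 204, 112 and 40.8 units in the 7 arrays from ZT02 to ZT26. The ZT10 value was 8.53-fold that of ZT06, and a second Ciart probe set gave a difference of 4.04 in log2. Per3 gave 75.7, 170, 769, 393, 260, 136 and 66.4 units, and Per1 gave 113, 185, 671, 425, 290, 252 and 82.8 units. All 3 genes thus had their highest value at ZT10. Per2 was higher by 1.71 in log2 (590 units at ZT10, against 181 units at ZT06) but went on to 1035 units at ZT14. Cry1, at 152 units at ZT10 and 94.4 units at ZT06, had its lowest value of the day at ZT06, and its highest values were at ZT18 and ZT22 (483 and 481 units); its difference of 0.69 became 1.09 after 43 units were subtracted. Bhlhe40, a repressor that also binds E-boxes, was higher by 0.64 (1009 units at ZT10, 648 units at ZT06). The exception was Cry2 at 0.46, below the threshold. Bhlhe41, the relative of Bhlhe40, lay below the level minimum with a mean of 47.0 units and was not counted, although its values were 106 units at ZT10 and 41.4 units at ZT06.

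The activators moved the other way. Arntl gave 497, 165, 39.2, 101, 357, 448 and 490 units from ZT02 to ZT26, so that the ZT10 value was the lowest and the difference was -2.08 in log2. This value moved to -1.56 with quantile normalization and to -6.93 after 43 units were subtracted, the ZT10 signal being below that background. Clock was lower by 1.13, with 456 units at ZT10 and 999 units at ZT06, also its lowest value of the day. Rora did not pass the threshold (0.18). The ZT26 and ZT02 pools gave nearly the same values for these genes, with differences of -0.02 for Arntl, -0.11 for Clock and -0.05 for Rora.

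The 2 REV-ERB receptors differed from each other in this step. Nr1d1 had its highest value at ZT06 and was already lower at ZT10 (2312 units, against 3098 units at ZT06), a difference of -0.42 that did not pass the threshold. Nr1d2 was higher by 0.77 and had its highest value at ZT10, with 447, 1087, 1855, 808, 370, 227 and 430 units from ZT02 to ZT26. Nfil3, whose product competes with DBP, was lower by 1.00 and had its lowest value at ZT10 (143 units, against 286 units at ZT06). None of the 9 tested kinases and ubiquitin ligases that act on clock proteins was called. At this size the shares over all genes (1.95% higher and 1.92% lower) would give few or none. The largest positive differences among the 9 were 0.17 for Csnk2a2 and 0.16 for Gsk3a.

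Of 10 tested clock outputs, 9 were higher at ZT10 (90.0%, beside 1.95% of all genes). Usp2, a deubiquitinating enzyme, gave 101, 163, 1685, 1352, 677, 448 and 117 units from ZT02 to ZT26, and its ZT10 value was 10.4-fold its ZT06 value. Wee1, the kinase that holds back entry into mitosis, gave 130, 143, 888, 674, 482, 175 and 153 units. For Rgs16, a regulator of G protein signalling, the values were 2656 units at ZT10 and 652 units at ZT06. The 3 PAR bZIP factors were Dbp at 1.75 in log2 (2161 units at ZT10, 641 units at ZT06), Tef at 1.45 (1104 and 403 units at ZT10 and ZT06) and Hlf at 0.68 (659 and 411 units at ZT10 and ZT06). Dbp and Tef had their highest value at ZT10, whereas that of Hlf was at ZT14 (762 units). Noct, which encodes nocturnin, was higher by 1.40, and Nampt, the rate-limiting enzyme of NAD salvage, by 1.26. The exception was Elovl3, an elongase of very long chain fatty acids, which gave 7967, 6148, 1453, 1447, 5098, 8402 and 7844 units and was lower by 2.08.

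**Figure D2:**
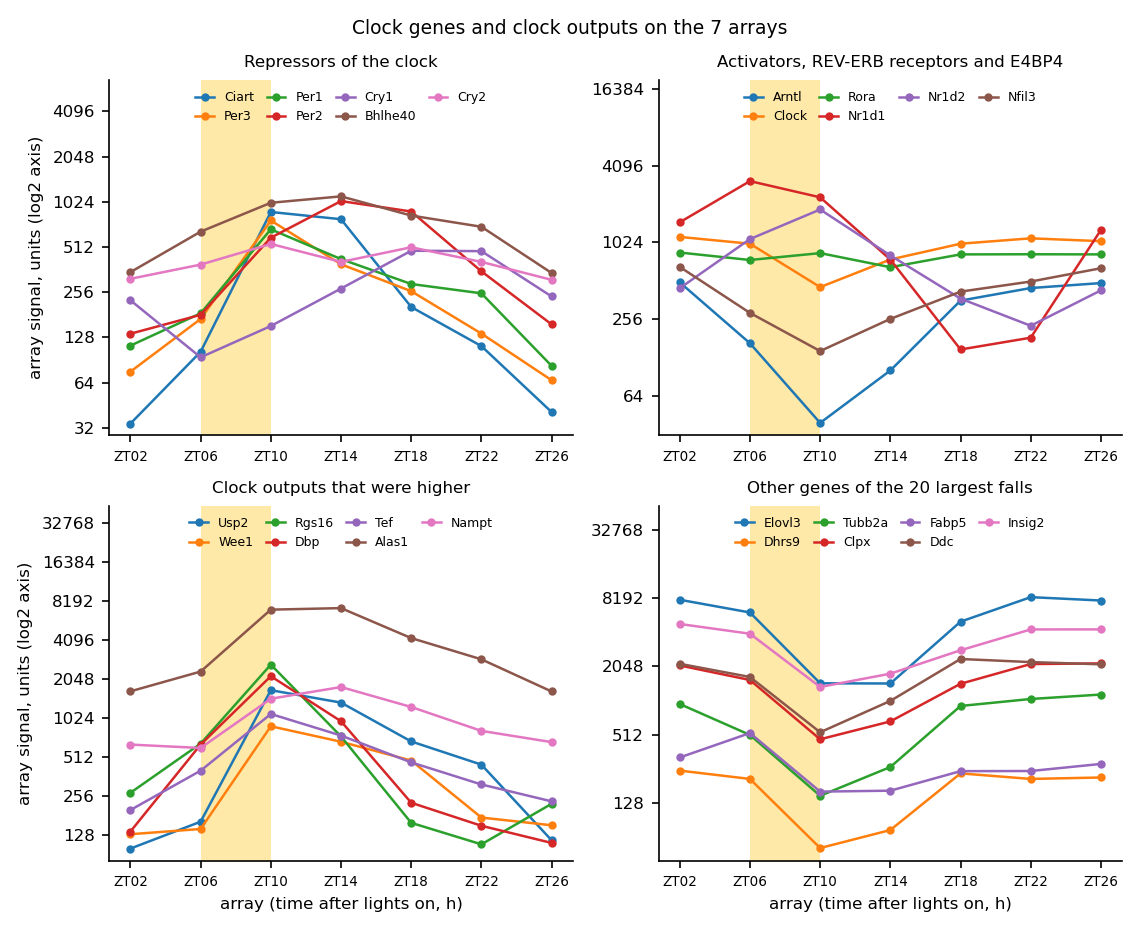
Array signal in units (log2 axis) on the 7 arrays from ZT02 to ZT26 for clock repressors, for activators with REV-ERB receptors and Nfil3 (E4BP4), for clock outputs that were higher, and for genes of the 20 largest falls, 1 pool per point with no error. The shaded band is the step between ZT06 and ZT10, in which Ciart goes up to 876 units and Arntl goes down to 39.2 units.

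Promoters were searched for 8 elements chosen with earlier results known, of which 3 belong to the clock. Promoters were taken from RefSeq (mouse build GRCm38.p6, 250 bases before to 50 bases after each start), and 8781 of the 10966 tested genes had at least 1. The E-box CACGTG, which reads the same on both strands, stood in 36 of the 169 genes with a promoter that were higher at ZT10 (21.3%), in 20 of the 162 that were lower (12.3%) and in 1057 of all 8781 (12.0%). It stood in 3 of the 5 clock repressors with a promoter but in 1 of the 8 clock outputs (12.5%), namely Tef, and none of these 8 held a D-box. The stretches below are those of 5 genes that were higher, read 5′ to 3′ on the strand of the gene with the E-box in capitals. The 3 E-boxes of Ciart begin 116, 58 and 44 bases before its start, and those of Per1, Tef, Cry1 and Nr1i3 begin 166, 127, 60 and 244 bases before theirs.
Ciart, chr3:95882237-95882374, minus strand: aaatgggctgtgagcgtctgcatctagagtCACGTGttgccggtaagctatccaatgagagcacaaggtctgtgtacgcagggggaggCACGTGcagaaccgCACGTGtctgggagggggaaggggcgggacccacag
Per1, chr11:69098753-69098818, plus strand: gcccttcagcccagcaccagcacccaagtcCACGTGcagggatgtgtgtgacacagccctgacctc
Tef, chr15:81802516-81802581, plus strand: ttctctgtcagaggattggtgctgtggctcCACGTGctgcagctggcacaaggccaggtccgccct
Cry1, chr10:85185079-85185144, minus strand: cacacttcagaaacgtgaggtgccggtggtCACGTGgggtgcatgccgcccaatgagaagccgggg
Nr1i3, chr1:171213720-171213761, plus strand: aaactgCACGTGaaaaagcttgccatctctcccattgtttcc

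The D-box (TTATGTAA or TTACGTAA, on either strand) stood in 7 of the 169 higher genes (4.14%), in 2 of the 162 lower genes (1.23%) and in 83 of all 8781 (0.945%). Of the 44 genes with a promoter that were higher by over 2-fold, 4 held it (9.09%). Per3 holds 2 copies, which begin 205 and 158 bases before its start, and Coq10b, a coenzyme Q binding protein, holds 1 copy on the other strand 162 bases before its start. Coq10b was higher by 1.37 in log2 and also holds an E-box. The 2 stretches show the D-boxes in capitals.
Per3, chr4:151044786-151044900, minus strand: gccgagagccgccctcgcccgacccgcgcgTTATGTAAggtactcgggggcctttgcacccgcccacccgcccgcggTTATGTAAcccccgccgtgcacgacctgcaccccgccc
Coq10b, chr1:55052578-55052645, plus strand: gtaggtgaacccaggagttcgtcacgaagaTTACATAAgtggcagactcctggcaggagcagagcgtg

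The ROR element TAGGTCA, searched on both strands, was found more in the lower genes by count. It stood in 5 of the 169 higher genes (2.96%), in 14 of the 162 lower genes (8.64%) and in 230 of all 8781 (2.62%). Among the lower genes that hold it are Arntl, Nfil3, Dhrs9, Slc45a3, Fabp7 and G6pc. The element begins 31 bases after the start of Arntl, and 12 and 88 bases before the starts of Nfil3 and Dhrs9, as shown in capitals. The forkhead element GTAAACA stood in 5.92% of the higher genes, 3.09% of the lower genes and 3.36% of all, the CRE TGACGTCA in 1.18%, 2.47% and 3.42% of the same 3 sets, and the glucocorticoid element (ACA, 3 free bases, TGT, 1 free base and C) in 2.37%, 2.47% and 2.48%. The sterol element TCACNCCAC was in none of the higher genes, 2 of the lower genes and 1.43% of all. The heat shock element (GAA, TTC and GAA with 2 free bases between each) was in none of the 331 called genes with a promoter. It stood in 0.558% of all genes and in 4 of 19 listed heat shock chaperones (21.1%). Hsp90aa1, which was lower, had no promoter in this set and was not searched. These matches are a description of the letters in the window, and binding was not analysed here.
Arntl, chr7:113207530-113207558, plus strand: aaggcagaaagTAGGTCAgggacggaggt
Nfil3, chr13:52981015-52981081, minus strand: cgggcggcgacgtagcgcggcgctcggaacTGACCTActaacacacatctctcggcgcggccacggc
Dhrs9, chr2:69380344-69380410, plus strand: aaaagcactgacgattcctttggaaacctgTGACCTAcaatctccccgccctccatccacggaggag

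Lipid genes were called in part. Mfsd2a, which encodes a carrier of lysophosphatidylcholines, gave 185, 405, 2683, 3148, 1359, 966 and 199 units from ZT02 to ZT26, and its ZT10 value was 6.63-fold the ZT06 value. Lpin1, a phosphatidate phosphatase and transcriptional coactivator, gave 607, 858, 2488, 2741, 796, 811 and 618 units. Both genes had their highest value at ZT14 and their second highest at ZT10. The related Lpin2 was higher by 0.72 and was high at ZT10 alone (3036 units, against 1839 units at ZT06), and Pnpla2, the adipose triglyceride lipase, was higher by 0.61. Lpin1, Lpin2 and Pnpla2 were 3 of the 19 tested genes for lipid droplets, lipolysis and triglyceride synthesis (15.8%, beside 1.95% of all genes). None of the 19 was lower, and their median was 0.18. Lipg, the endothelial lipase, was higher by 1.21, and Lpl, lipoprotein lipase, was lower by 0.81.

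The acyl-CoA thioesterase genes Acot1 to Acot4, which lie side by side in the genome, were all higher. Acot3, which acts in peroxisomes, was higher by 2.79 in log2 (478 units at ZT10, 69.1 units at ZT06). Acot4 was higher by 1.40 (998 units at ZT10, 377 units at ZT06), Acot1 by 0.83 (158 units at ZT10, 88.8 units at ZT06) and Acot2 by 0.66 (505 units at ZT10, 320 units at ZT06). The ZT26 minus ZT02 difference was 0.00 for Acot3 and 0.22 for Acot4, but 0.77 for Acot1 and 0.94 for Acot2, which for Acot2 exceeds the step itself. Subtracting 43 units gave 1.33 for Acot1. The other 6 tested thioesterases did not pass the threshold, and these genes are similar enough in sequence that probes may be shared, which was not tested. This set was put together after its values were seen.

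The wider set of PPAR-alpha targets, fatty acid oxidation and ketogenesis changed in few members. Of 26 tested genes, 4 were higher (Cyp4a14, Acot1, Ppargc1a and Acot2) and 1 was lower (15.4% and 3.85%, beside 1.95% and 1.92% of all genes), and the median was 0.14. Cyp4a14, an omega-hydroxylase of fatty acids, was higher by 1.59 (4003 units at ZT10, 1327 units at ZT06), but the ZT26 and ZT02 pools differed by 1.44. Ppargc1a, the coactivator PGC-1alpha, gave 341, 322, 509, 339, 349, 347 and 335 units and was thus high on the ZT10 array alone. Ppara and Cpt1a, the entry enzyme of mitochondrial oxidation, each gave 0.38, and Acadm gave 0.14. Pdk4, a kinase that shuts off pyruvate dehydrogenase in fasting, was lower by 1.28, with 642, 276, 114, 133, 390, 484 and 778 units from ZT02 to ZT26. It was lowest at ZT10, when the mice had been longest without food.

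In fatty acid synthesis, 3 of 17 tested genes were higher and 1, Elovl3, was lower, with a median of 0.02. These are 17.6% and 5.88%, beside 1.95% and 1.92% of all genes. Thrsp, the Spot 14 protein of lipogenic tissue, gave 2805 units at ZT10 and 1211 units at ZT06, and went on to 5414 units at ZT14. Srebf1, the SREBP-1 regulator of lipogenesis, was higher by 0.63, and the elongase Elovl6 by 0.60. Aacs, which activates acetoacetate in the cytosol for lipid synthesis, was higher by 1.32 (833 units at ZT10, 333 units at ZT06). None of 17 tested cholesterol synthesis genes was called, with Hmgcs1 at -0.47 and Idi1 at -0.30. Insig2, an endoplasmic reticulum protein that retains the SREBP precursors, was lower by 1.56 (1348 units at ZT10, 3989 units at ZT06) and had its lowest value of the day at ZT10.

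Fabp5 and Fabp7, genes of fatty acid binding proteins, were among the genes that were lower. Fabp5 gave 321, 527, 160, 163, 243, 243 and 281 units, so that its highest and lowest values fell on the 2 arrays of this step, and Fabp7 was lower by 0.88 (231 units at ZT10, 425 units at ZT06). Fabp1, the main form of liver, gave -0.07, Fabp2 -0.10 and Fabp4 -0.04. Angptl8, a secreted inhibitor of lipoprotein lipase that is known to go up with feeding, was lower by 0.68 (795 units at ZT10, 1277 units at ZT06). Its highest value was at ZT14, 2 h after food was given and lights went off.

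Bile acid and sterol transport genes were split. Cyp7a1, which sets the rate of bile acid production from cholesterol, was higher by 0.76 (4388 units at ZT10, 2596 units at ZT06). Abcg5 and Abcg8, the neighbouring genes for both subunits of the biliary sterol exporter, were higher by 0.63 and 0.54. Cyp8b1, the sterol 12-alpha hydroxylase, was lower by 0.59, and Cyp7b1, of the alternative pathway, by 1.04 (3013 units at ZT10, 6188 units at ZT06). Nr0b2, the repressor SHP, was lower by 0.69 (570 units at ZT10, 923 units at ZT06). Of 19 tested genes on this list, 3 were higher and 3 were lower (15.8% each, beside 1.95% and 1.92% of all genes).

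Glycogen genes were similarly divided. Gys2, the liver glycogen synthase, was higher by 0.84 (6255 units at ZT10, 3485 units at ZT06). The targeting subunits of protein phosphatase 1 that bring it to glycogen moved in opposite directions. Ppp1r3g gave 207, 160, 391, 127, 99.5, 113 and 111 units and was high on the ZT10 array, although its ZT26 and ZT02 pools also differed by -0.90. Ppp1r3c gave 1403, 890, 305, 457, 1315, 1854 and 1223 units and was lowest at ZT10.

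Of 15 tested genes for glucose uptake and glycolysis, 3 were higher and none was lower, beside 1.95% and 1.92% of all genes. At this size the share of 1.92% would give few or none. Pfkfb3, which makes the activator of phosphofructokinase, gave 97.6, 142, 377, 319, 161, 143 and 88.5 units. Slc2a2, the glucose carrier GLUT2, was higher by 0.54 (5020 units at ZT10, 3452 units at ZT06), and Pdk1 by 0.62. Slc2a5, the fructose carrier GLUT5, was not on the list and was higher by 0.85. In gluconeogenesis, Slc37a4, which carries glucose 6-phosphate into the endoplasmic reticulum, was higher by 0.57, whereas G6pc, the phosphatase that acts on it there, was lower by 0.56 (7469 units at ZT10, 11041 units at ZT06). Foxo1, a transcription factor held back by insulin, was higher by 0.56. Igfbp1, which insulin also holds back, was lower by 0.64 (557 units at ZT10, 865 units at ZT06) and lowest at ZT14 (117 units). Cish was higher by 1.05 and Socs2 lower by 0.59, both feedback inhibitors of cytokine and growth hormone receptors, and the ZT26 minus ZT02 difference of Cish was 0.83. A second Socs2 probe set gave -0.13, and the mean of both, -0.36, did not pass the threshold.

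Of 20 tested iron and heme genes 3 were higher (15.0%, beside 1.95% of all genes) and none was lower. Of 21 genes of NAD synthesis, tryptophan breakdown and sirtuins, 2 were higher (9.52%) and 1 was lower (4.76%, beside 1.92%). Alas1, the first enzyme of heme synthesis, gave 1652, 2348, 7059, 7253, 4257, 2918 and 1648 units, a difference of 1.59. Clpx, a subunit of the mitochondrial protease that in human cells degrades ALAS1 protein, was lower by 1.74 (465 units at ZT10, 1554 units at ZT06) and was lowest at ZT10. Nmrk1, a kinase of the NAD precursor nicotinamide riboside, was higher by 1.33, and Acmsd, which draws tryptophan breakdown away from NAD, was lower by 0.71. Of 24 tested P450 enzymes and their receptors, 5 were higher (20.8%, beside 1.95% of all genes) and none was lower. These included the receptors Nr1i3 (CAR) at 0.91 (3576 units at ZT10, 1909 units at ZT06) and Nr1i2 (PXR) at 0.60. Cyp2b9 was higher by 2.19 (319 units at ZT10, 70.0 units at ZT06), but its ZT26 minus ZT02 difference of 2.74 was larger than the step, which was 3.35 after 43 units were subtracted. Hamp and Hamp2, the 2 hepcidin genes, were higher by 0.57 and 1.22.

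Several genes of signalling were high at ZT10. Nrg4, a secreted growth factor, gave 131, 176, 559, 542, 252, 135 and 141 units, and Erbb4, which encodes its receptor, gave 141, 195, 382, 168, 77.0, 124 and 143 units. Both the ligand and the receptor thus had their highest value at ZT10. Of 22 tested hormone and growth factor receptors, a set put together after the values were seen, 8 were higher and 5 were lower. These are 36.4% and 22.7%, beside 1.95% and 1.92% of all genes. Il6ra was higher by 0.62, Lepr by 0.68, P2ry1 by 0.97 and Fzd4 by 0.93, and Avpr1a, a vasopressin receptor, was lower by 1.31 (287 units at ZT10, 714 units at ZT06), as was Chrm3, a muscarinic receptor, by 1.21 (48.2 units at ZT10, 112 units at ZT06). Lepr and Chrm3 are low in signal, and their differences were 1.61 and -3.73 after 43 units were subtracted, while that of Chrm3 was -0.82 with quantile normalization. Insr and Gcgr, the receptors of insulin and glucagon, gave 0.19 and -0.01. Among 21 listed immediate early and Kruppel-like factors, 2 were higher (9.52%, beside 1.95% of all genes). These were Myc at 1.80 (663 units at ZT10, 191 units at ZT06) and Klf13 at 1.32 (564 units at ZT10, 226 units at ZT06). Klf1, which was not on the list, was higher by 0.66 (171 units at ZT10, 108 units at ZT06). Ccne1, the cyclin E1 gene, was higher by 1.24, and its ZT10 value of 184 units was the highest of the day. Its other 6 arrays averaged 78.7 units, below the level minimum, and the difference became 2.01 after 43 units were subtracted. Of genes that glucocorticoids induce, Fkbp5 was higher by 0.77 with 361 units at ZT10 and 212 units at ZT06, and was highest at ZT14 (785 units).

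Solute carriers, which sit in the cell membrane and in membranes within the cell, were called in both directions. Of 212 tested genes whose symbols begin with Slc and a number, 13 were higher (6.13%, beside 1.95% of all genes) and 12 were lower (5.66%, beside 1.92%). Slco1a4, an organic anion carrier outside this count, was higher by 0.72. Slc16a5, Slc16a12 and Slc16a7 of the monocarboxylate family were higher by 1.37, 1.02 and 0.82, and Slc16a6 and Slc16a1 of the same family, the last being the lactate and ketone body carrier MCT1, were lower by 0.94 and 0.60. The phosphate carrier Slc20a1 was higher by 1.07 (1437 units at ZT10, 685 units at ZT06). Slc30a10, a manganese exporter, was lower by 1.29 (199 units at ZT10, 486 units at ZT06), and the magnesium carrier Slc41a2 by 1.52 (472 units at ZT10, 1352 units at ZT06). The share by symbol was chosen after the values were seen and is a description.

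The remaining large negative differences belonged to genes of varied function, most of which were lowest at ZT10. The probe set annotated to Mir122, the host of the main liver microRNA, gave 478, 408, 67.7, 302, 597, 700 and 625 units, and mature microRNA was not measured. Dhrs9, a retinol dehydrogenase, gave 50.7 units at ZT10 and 207 units at ZT06, a difference of -2.03 that became -4.41 after 43 units were subtracted. Tubb2a, a beta-tubulin, gave 147 units at ZT10 and 507 units at ZT06. All 8 tested tubulins had negative differences, beside 5303 of all 10966 genes, with a median of -0.25. Of the 8, 2 (Tubb2a and Tuba8) were called lower, beside 1.92% of all genes, Tuba8 no longer with quantile normalization. The median ZT26 minus ZT02 difference of the 8 was 0.19. Ddc, the aromatic amino acid decarboxylase, was lower by 1.62, Cldn1, a tight junction protein, by 1.55, and Chka, choline kinase, by 1.56. Tars, threonyl-tRNA synthetase, was lower by 1.01, and Asns and Atf5 of the amino acid response by 0.55 and 0.71, although Asns differed by -1.07 between ZT26 and ZT02.

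Genes of folding in the endoplasmic reticulum were lower at ZT10 where they were called. Of 30 tested genes, 6 were lower (Creld2, Derl3, Hyou1, Sdf2l1, Pdia6 and Dnajb11) and none was higher, beside 1.92% and 1.95% of all genes. Of the 30, 25 had negative differences, beside 5303 of all 10966 genes. The median was -0.23 beside 0 for all genes. Creld2, a disulfide isomerase, gave 1733, 1208, 535, 2588, 2563, 796 and 1616 units. Hyou1, a chaperone of the HSP70 family, gave 1917, 1787, 964, 1858, 2552, 1609 and 1787 units, and Derl3, of the degradation machinery, gave 301, 354, 172, 278, 404, 249 and 250 units. All 3 genes were lowest at ZT10 and were up again at ZT14. Food was given and lights went off at ZT12, and these cannot be told apart here. Hspa5 (BiP), an abundant HSP70 chaperone, gave -0.38 and Pdia4 -0.52, both short of the threshold, and Herpud1 (0.42) and Dnajb9 (0.32) had the largest positive differences.

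An ER stress element (CCAAT and CCACG with 9 free bases between them, on either strand) stood in the promoters of 9 of the 23 listed genes with a promoter (39.1%), against 16 of all 8781 (0.182%), and in 4 of the 162 genes that were lower (2.47%) and in none of the 169 that were higher. This motif was chosen after the values were seen, and several of the listed genes are known as targets of the factors that bind it. Of the called genes 3 are shown with the element in capitals. It begins 126, 156 and 98 bases before the starts of Creld2, Derl3 and Pdia6.
Creld2, chr15:88819490-88819568, plus strand: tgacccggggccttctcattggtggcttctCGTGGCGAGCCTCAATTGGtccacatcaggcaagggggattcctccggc
Derl3, chr10:75893212-75893290, plus strand: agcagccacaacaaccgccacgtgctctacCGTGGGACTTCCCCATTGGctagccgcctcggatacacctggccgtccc
Pdia6, chr12:17266461-17266539, plus strand: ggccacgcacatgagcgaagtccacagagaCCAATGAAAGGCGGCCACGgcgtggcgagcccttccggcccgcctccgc

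Heat shock chaperones were split between 3 genes called lower (13.6%, beside 1.92% of all genes) and the rest. Hsp90aa1, the inducible HSP90, gave 2212, 2246, 1115, 3293, 3815, 2375 and 2224 units, and its other 2 probe sets gave differences of -1.02 and -1.16 beside -1.01. Hspa4l was lower by 0.77 and Hspb1 by 0.69. The other 19 of 22 tested genes did not pass the threshold, with Hspa1a at 0.14, Hspa8 at 0.08 and Hspd1 at -0.01. Of 32 proteasome genes none was called, but 30 had negative differences, beside 5303 of all 10966 genes. The proteasome median was -0.15, with Psmd11 lowest at -0.43.

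**Figure D3:**
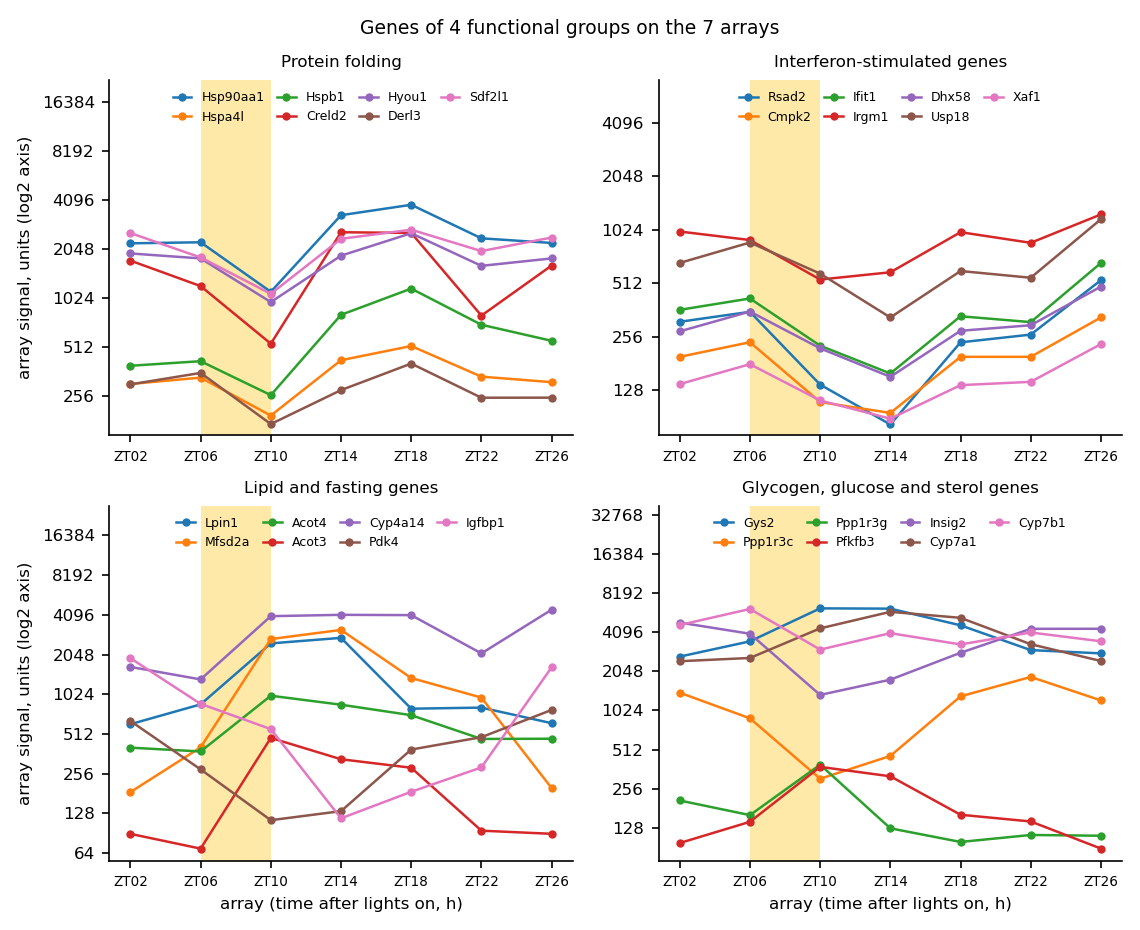
Array signal in units (log2 axis) on the 7 arrays from ZT02 to ZT26 for genes of protein folding, interferon-stimulated genes, lipid and fasting genes, and genes of glycogen, glucose and sterol metabolism, 1 pool per point with no error. The shaded band is the step between ZT06 and ZT10; Hsp90aa1 and Creld2 are at their lowest at ZT10 (1115 and 535 units), whereas Rsad2 is at its lowest at ZT14 (81.7 units).

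Acute phase genes were lower at ZT10 where they were called, except Hamp. Of 21 tested acute phase genes, 5 were lower and 1 was higher (23.8% and 4.76%, beside 1.92% and 1.95% of all genes). Saa1 and Saa2, neighbouring serum amyloid genes of high similarity, were lower by 3.35 and 3.04 in log2. Saa1 was at 23.0 units at ZT10 and 235 units at ZT06, and averaged 64.4 units without ZT06, and its difference became -2.60 with quantile normalization and -7.59 after 43 units were subtracted. Saa2 gave 842, 1406, 172, 258, 314, 416 and 388 units, so that the ZT02 and ZT06 pools were high and the other 5 pools were low, and the ZT26 minus ZT02 differences of Saa1 and Saa2 were -1.54 and -1.12. Lcn2 and Orm2 were lower by 1.54 and 1.30, but with ZT02 above ZT06, the reverse of Saa1 and Saa2. From 235 and 595 units at ZT10 they were up at 598 and 1453 units at ZT18. The ZT26 minus ZT02 differences of Lcn2 and Orm2 were -0.82 and -0.42. Hp, Fga and Hpx gave -0.27, -0.30 and -0.06. A second Fga probe set, of lower mean, passed the threshold at -0.53.

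Of 26 tested interferon-stimulated genes, a set put together after the values were seen, 9 were lower (34.6%, beside 1.92% of all genes). None was higher. All 26 had negative differences, beside 5303 of all 10966 genes, and the median of the 26 was -0.36. Rsad2, an antiviral enzyme, gave 310, 353, 137, 81.7, 237, 262 and 532 units, and its neighbour Cmpk2 gave 197, 238, 109, 94.9, 197, 197 and 328 units. Ifit1 was lower by 0.88 and Irgm1 by 0.74. The ZT26 pool was above the ZT02 pool for these genes, with a median difference of 0.49 over the 26, which is larger in size than the median of the step. For 6 of the 9 called genes the step was larger than their own ZT26 minus ZT02 difference, and for Usp18, Xaf1 and Dhx58 it was not.

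Liver macrophage markers had mostly negative differences beside these genes, none past the threshold. Of 11 Kupffer cell markers, of which 10 passed the level minimum, 10 had negative differences and none was called, with Vsig4 at -0.51, C1qc at -0.49, C1qb at -0.49 and Clec4f at -0.39. Their summed signal was 5727 units at ZT10 and 7320 units at ZT06, against 8965 units at ZT26 and 8019 units at ZT02. In whole liver RNA, fewer cells of a type and less RNA per cell cannot be told apart, and the part of Kupffer cells in the immune genes was not tested. The 7 hepatocyte markers summed to 80254 units at ZT10 and 80810 units at ZT06, with no gene beyond 0.07, and the 8 markers of sinusoidal endothelial cells summed to 6606 units at ZT10 and 6454 units at ZT06. The lymphocyte markers summed to 1143 units at ZT10 and 1175 units at ZT06. Of 4 bile duct markers, which summed to 389 units at ZT10 and 485 units at ZT06, Sox9 alone passed the level minimum, and it was lower by 0.56. Neutrophil markers were all below the level minimum.

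Other lists had few called genes or none, at sizes where the shares over all genes (1.95% and 1.92%) would give few. No gene was called among 52 of oxidative phosphorylation, 47 of cytosolic ribosomal proteins, 25 secreted hepatocyte proteins and apolipoproteins, and 22 RNA-binding and splicing factors, with medians between -0.04 and 0. In ribosome biogenesis 1 of 38 was higher (Nolc1, 0.54, no longer called with centred arrays), in autophagy 1 of 22 (Bnip3, 0.70), and in the urea cycle and amino acid breakdown 1 of 28 was lower (Gldc, -0.88). Among conjugating enzymes 2 of 28 were higher (Sult1c2 and Gstt2), and among 15 NRF2 genes 1 was lower (Osgin1, -0.95).

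**Figure D4:**
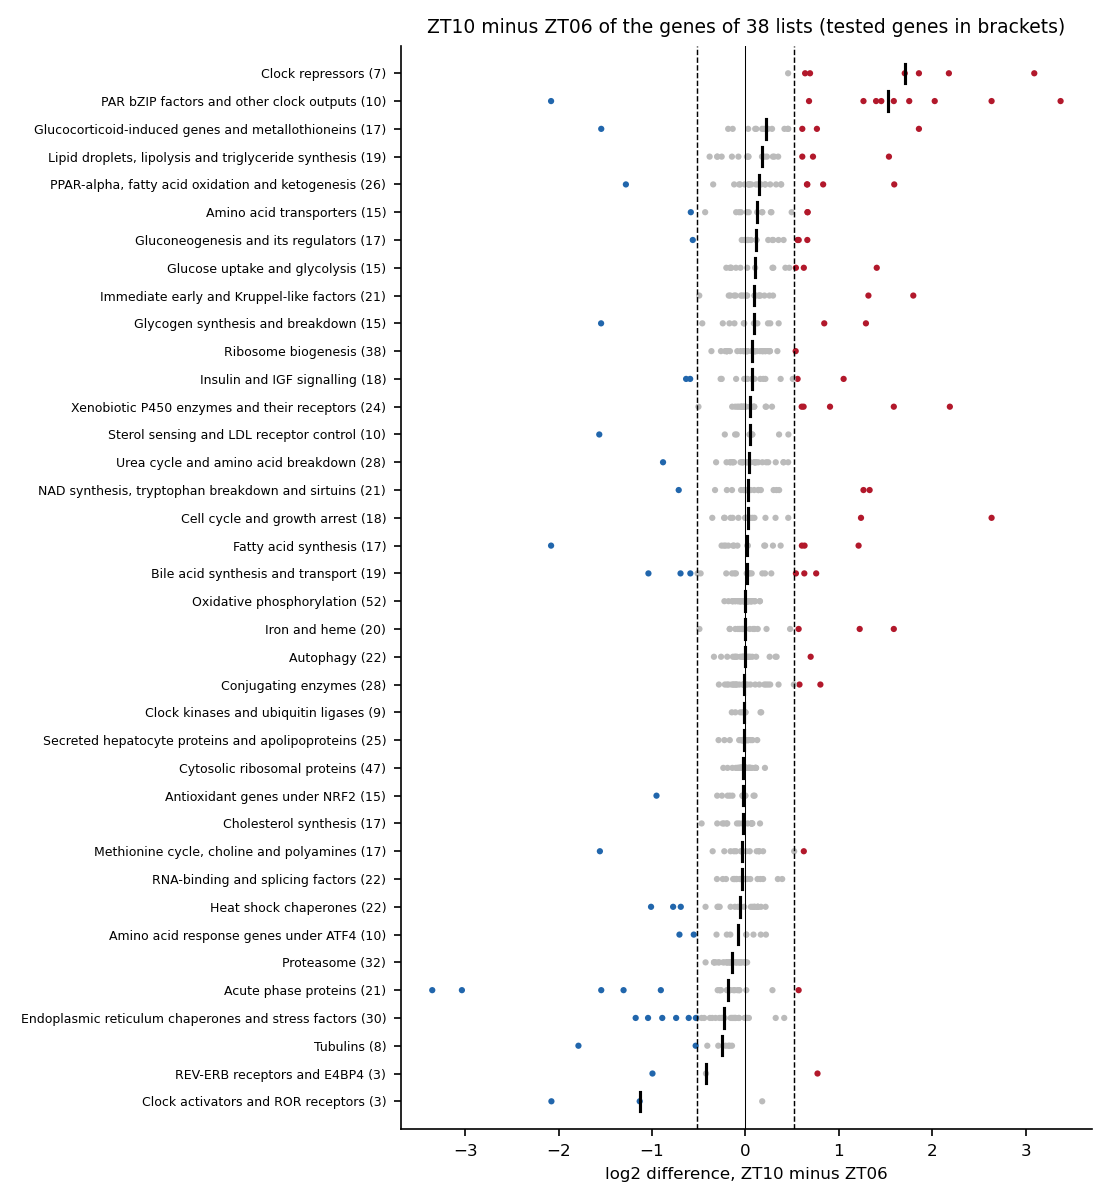
Difference of ZT10 minus ZT06 in log2 for each tested gene of 38 lists, with the number of tested genes in brackets. Red points were called higher, blue points lower and grey points not called; black bars are list medians and dashed lines the threshold of 0.522, and the clock repressors stand highest with a median of 1.71.

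The other arrays place this step within the day. Of the 214 genes that were higher, 134 had their highest value of the 7 arrays at ZT10 (62.6%), 58 at ZT14 (27.1%) and 18 at ZT18, beside 18.1% of all genes at ZT10. Of the 210 that were lower, 146 had their lowest value at ZT10 (69.5%) and 59 at ZT14 (28.1%), beside 17.6% of all genes at ZT10. Since the genes were chosen by ZT10 minus ZT06, these shares are in large part set by the choice and are a description. The highest value of the lower genes was spread over the day, with 42 at ZT02, 37 at ZT06, 7 at ZT14, 40 at ZT18, 20 at ZT22 and 64 at ZT26.

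The step of ZT22 minus ZT18 lies 12 h later and shares no array with ZT10 minus ZT06, although all arrays were normalized together. Over all 10966 genes it had a median of 0, with 58 genes higher (0.529%) and 103 lower (0.939%). The 214 genes that were higher at ZT10 had a median of -0.20 in it, 177 of them had a negative value, and 45 were lower by the same threshold (21.0%). The 210 genes that were lower at ZT10 had a median of 0.09, with 18 higher (8.57%) and 8 lower (3.81%). Whether the shares differ was not tested. Per2 and Wee1 gave -1.32 and -1.46, Elovl3 and Insig2 gave 0.72 and 0.61, and Arntl gave 0.33.

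**Figure D5:**
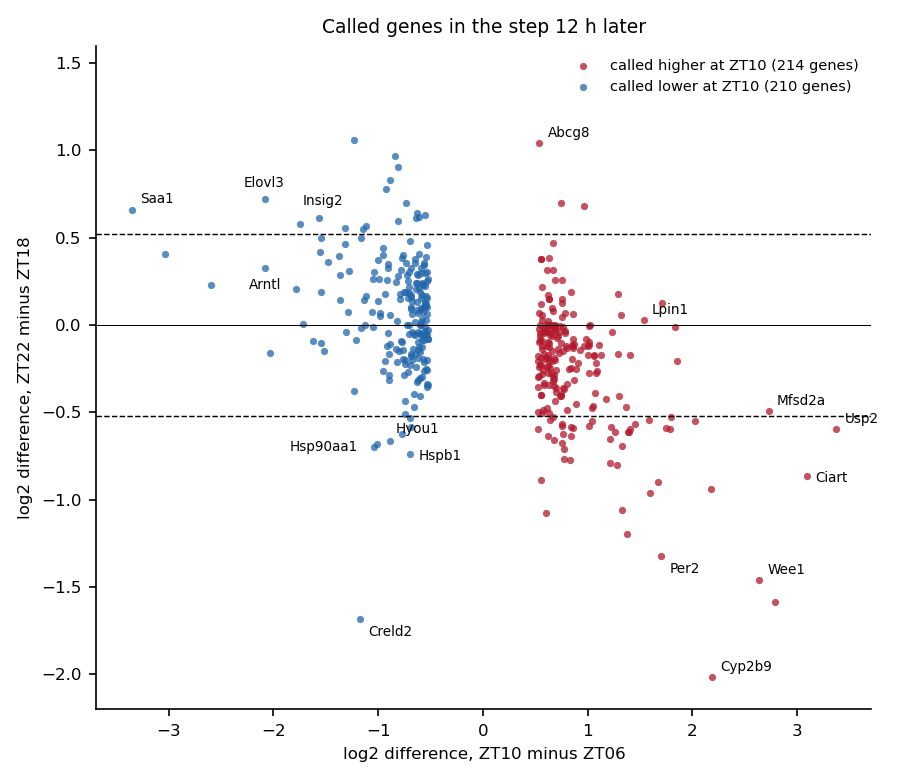
ZT22 minus ZT18 in log2 (y axis) against ZT10 minus ZT06 in log2 (x axis) for the 214 genes called higher (red) and the 210 called lower (blue) at ZT10, 1 point per gene. Dashed lines are the threshold of 0.522; 45 red points lie below the lower line, and Creld2, Hsp90aa1, Hyou1 and Hspb1 are blue points below it.

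A small set was lower in both steps. It held 8 genes, of which 6 were chaperones or their partners (Creld2, Derl3, Hyou1, Hsp90aa1, Hspa4l and Hspb1), with Angptl8 and Inhba, a subunit of activin. Creld2 gave -1.69 and Hspb1 -0.74 in ZT22 minus ZT18. In this later step 6 of the 30 endoplasmic reticulum genes and 6 of the 22 heat shock genes were lower, beside 0.939% of all genes. None of either list was higher, and the medians were -0.16 and -0.35. In both steps 3 genes were higher, namely Erbb4, 4930578G10Rik and Abcg8, and Abcg8 gave 953 units at ZT22, against its lowest value of 463 units at ZT18.

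Genes that lie next to each other were in places called together. Among 6430 pairs of adjacent protein-coding genes with both tested, 25 pairs had both genes called, and 18 of these pairs were called the same way. Over all genes 3.87% were called in either direction, and whether 25 pairs exceed what this share would give was not tested. Some of the 18 pairs are relatives within a family, namely Acot1 to Acot4, Saa1 and Saa2, Hamp and Hamp2, and Abcg5 and Abcg8. Others were Rsad2 with Cmpk2, Nr1i3 with Pcp4l1 (0.91 and 0.68) and Tef with Tob2 (1.45 and 0.55). In 7 pairs the neighbours moved in opposite directions, such as Dbp (1.75) with Sphk2 (-0.55), Nolc1 (0.54) with Elovl3 (-2.08), and Slc37a4 (0.57) with Hyou1 (-0.89).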

How the data were processed

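The deposited values are log2 array signals that the authors made with RMA in Affymetrix Expression Console 1.1.2637.26569, per the submitters' notes; RMA corrects background, puts the arrays on 1 scale and sums probes into probe sets. RMA's summary often gave 2 arrays the same value: ZT10 and ZT06 were equal in 727 of 12076 probe sets (6.02%). Probe sets were named through the platform annotation, with symbols updated through RefSeq. Of 35556 probe sets, 21789 carried 1 symbol, 1621 several and 12146 none. Mean level was taken over the 7 arrays on the natural scale. The background of 43 units is the one given in the study's methods.

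Differences, counts and medians were computed in Python 3.11.15 with pandas, and no test was run, since each time point is 1 array. The script was tested on simulated data. Named genes are the 20 largest changes in each direction, all clock genes, up to 5 called genes of each other list (2 where none was called), and genes needed to describe a group. The members and the 38 lists (836 genes, 736 tested) were chosen with earlier results of these data known. Sets named as put together afterwards, the symbol families and the ER stress element were added after values were seen. Array number limits precision. Alternatives changed the threshold, the level filter, the scaling and the probe set.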

Additional observations from a re-analysis of the deposited data

How the results depend on the processing

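The counts of 231 probe sets higher and 223 lower at ZT10 than at ZT06 stayed within 1.5 times under a 1.5-fold limit, a limit set separately at 4 ranges of level, no level filter or one of 170 units, array centring, quantile normalization and 1 probe set per gene. They became 536 and 564 at the 95th percentile of ZT26 minus ZT02 and 60 and 46 at 2-fold, which follows from the limit itself. The median ZT22 minus ZT18 of the higher genes was -0.20 and became -0.48 for those beyond 2-fold. Of 150 named genes none changed sign under the 4 alternatives run. Subtracting the array background of 43 units moved 47 of them (Saa1 to -7.59, Arntl to -6.93, Dhrs9 to -4.41, Mir122 to -3.89, Chrm3 to -3.73, Saa2 to -3.41 and Acot3 to 4.06, above Usp2 at 3.78), and quantile normalization moved 4 (Arntl to -1.56, Saa1 to -2.60, Dhrs9 to -1.68 and Chrm3 to -0.82). Averaging over probe sets moved Ciart to 3.57 and Socs2 to -0.36, below the threshold. Nolc1 lost its call with centred arrays, and S1pr1 and Tuba8 with quantile normalization. No paired analysis was possible because each time point has 1 array. One pool per time point limits every value here, since the spread between mice was averaged away and the noise scale rests on 1 pair of pools.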
